A study of Mus musculus with 12 samples.

Results

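Ung, Apobec3, Polh, Exo1 and Msh6 encode a DNA deaminase and repair enzymes that act on deaminated cytosine. They were examined as 5 genes of the 50686 counted in RNA-seq libraries of splenic B cells from 12 mice. The choice was by gene symbol, of enzymes that deaminate cytosine in DNA or act on the lesion. The deaminase, Apobec3, is known in mouse for restricting retroviruses, and the repair enzymes take part in antibody diversification. All 5 had enough counts to be tested among 17754 genes. In activated B cells, cytosine in immunoglobulin genes is deaminated to uracil, and the way the uracil is processed decides whether point mutations or the double-strand breaks of class switching follow. Uracil is cut out by a glycosylase, or the mismatch it forms with guanine is bound by a mismatch sensor, resected by an exonuclease and filled in by an error-prone polymerase. Germinal centre B cells, which mutate their antibody genes, are the usual site of this chemistry, while the same repair enzymes guard the whole genome in dividing cells.

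The YC mice (n = 3) were normal controls of genotype YFPstopF/+ Cg1Cre/+, whose cells were sorted as B220-positive and YFP-positive. BIC mice (n = 3) were Blimp1F/F IKK2castopF/stopF Cg1Cre/+, and pBIC mice (n = 6) were p53F/F in addition; both are described in the labels as models of activated B-cell type diffuse large B-cell lymphoma, and their cells were sorted as B220-positive and GFP-positive. All groups carry the Cγ1-Cre allele, a recombinase driven by transcription of the IgG1 constant region, which is switched on in activated B cells. The controls lack the stop-flanked IKK2 allele and carry another reporter. Blimp1 is a transcription factor of plasma cell differentiation, IKK2 a kinase of the NF-kB pathway and p53 the tumour suppressor. The labels give no age, sex or strain. The file headers name the libraries of pBIC 1, 2 and 3 pBICh and those of pBIC 4, 5 and 6 pBICl; the labels do not explain these letters and give the 6 mice 1 genotype, so they were kept as 1 group.

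Total gene counts ran from 33127283 to 47067627 per library, and the 5 genes had between 170 and 39695 counts in each. Trp53 stood at 16.2 to 32.004 CPM (counts scaled to a library of 1000000, after TMM scaling) in pBIC and at 72.1 to 209 CPM in the other libraries. The 6 B cell markers summed to 7173 to 8871 CPM in YC and to 8017 to 8755 CPM in BIC. Their sum in pBIC was 1926 to 6631 CPM, with none at 0 in any library. Neutrophil markers reached 803 and 1318 CPM in BIC 1 and BIC 2 and 51.1 CPM in BIC 3. They stood at 249, 6.80 and 1.72 CPM in YC 1, YC 2 and YC 3 and at 3.93 to 72.0 CPM in pBIC. The 5 neutrophil genes were detected in every library but 1 of YC, in which 1 gene was at 0. The 4 erythroid markers summed to 359, 10.5 and 34.9 CPM in YC 1, YC 2 and YC 3. Their sum was 71.1 to 225 CPM in BIC and 16.0 to 314 CPM in pBIC. The YC libraries held at most 5.13 CPM of Xist and the BIC libraries 1680 to 1828 CPM, so sex and genotype cannot be told apart in that comparison. In pBIC, libraries 2, 4 and 5 carried Xist. Ddx3y, a gene of the Y chromosome, had 3393 counts in pBIC 3 and 4557 counts in pBIC 6. The library of pBIC 1 was low in both genes, with 101 counts of Xist and 102 counts of Ddx3y. Neither gene therefore settles the sex of pBIC 1, and a term for Xist expression cannot stand for it.

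Upstream sequences of Polh, Msh6 and Ung, taken from RefSeq (GRCm38.p6), are shown because Polh and Msh6 passed the test and Ung acts first on uracil. Each run holds the 150 bases before the start annotated furthest upstream, 5′ to 3′ on the strand of the gene. Polh lies on the minus strand (chr17:46202642-46202791), Msh6 on the plus strand (chr17:87974900-87975049) and Ung on the plus strand (chr5:114130236-114130385).
Polh: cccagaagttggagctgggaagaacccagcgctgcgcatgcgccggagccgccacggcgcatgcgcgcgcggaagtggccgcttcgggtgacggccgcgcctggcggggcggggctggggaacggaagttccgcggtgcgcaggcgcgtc
Msh6: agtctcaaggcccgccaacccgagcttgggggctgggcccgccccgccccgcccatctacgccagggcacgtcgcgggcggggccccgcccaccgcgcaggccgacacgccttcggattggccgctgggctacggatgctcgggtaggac
Ung: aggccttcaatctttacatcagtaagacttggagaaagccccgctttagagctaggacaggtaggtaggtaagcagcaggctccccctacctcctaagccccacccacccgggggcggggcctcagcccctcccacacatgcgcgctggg
The E2F core motif, bound by the transcription factors that switch on S-phase genes, was searched as TTTCCCGC, TTTGGCGC, TTTGCCGC and TTTCGCGC on both strands, in windows from 250 bases before to 50 bases after each RefSeq start. Of the windows of Ung, Apobec3, Polh and Msh6, only that of Msh6 held a match, 16 to 23 bases downstream of its start, where the capitals mark it (chr17:87975054-87975083, plus strand). Exo1 was not searched.
Msh6 site: ctcctcccgacTTTCCCGCcagcggcggcc
Of 32851 promoter windows, 2.26% held 1 of these motifs. A match is a description of the letters and shows no binding.

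Levels were set side by side per kilobase of exon, over all annotated exons of each gene. A gene with annotated exons not used in these cells would appear too low. On that scale Apobec3 was the most abundant of the 5 in YC and BIC. Its mean RPKM (CPM per kilobase of exon) was 93.3 ± 13.4 (SD, n = 3) in YC and 97.9 ± 25.2 (n = 3) in BIC. Msh6 (36.0 ± 7.29 RPKM) and Polh (35.4 ± 9.74 RPKM) followed in YC and did not differ beyond their spread. Ung, at 6.49 ± 1.495 RPKM, and Exo1, at 2.54 ± 0.413 RPKM, were the least abundant there. In BIC the order was the same: Msh6 stood at 13.1 ± 3.57 RPKM, Polh at 10.2 ± 2.61, Ung at 4.31 ± 1.20 and Exo1 at 0.779 ± 0.413. In pBIC (n = 6) the Apobec3 mean of 48.4 ± 65.6 RPKM had an SD larger than itself, Msh6 stood at 25.1 ± 8.89 RPKM, Polh at 14.7 ± 2.97, Ung at 9.19 ± 3.81 and Exo1 at 4.88 ± 2.18.

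**Figure D1:**
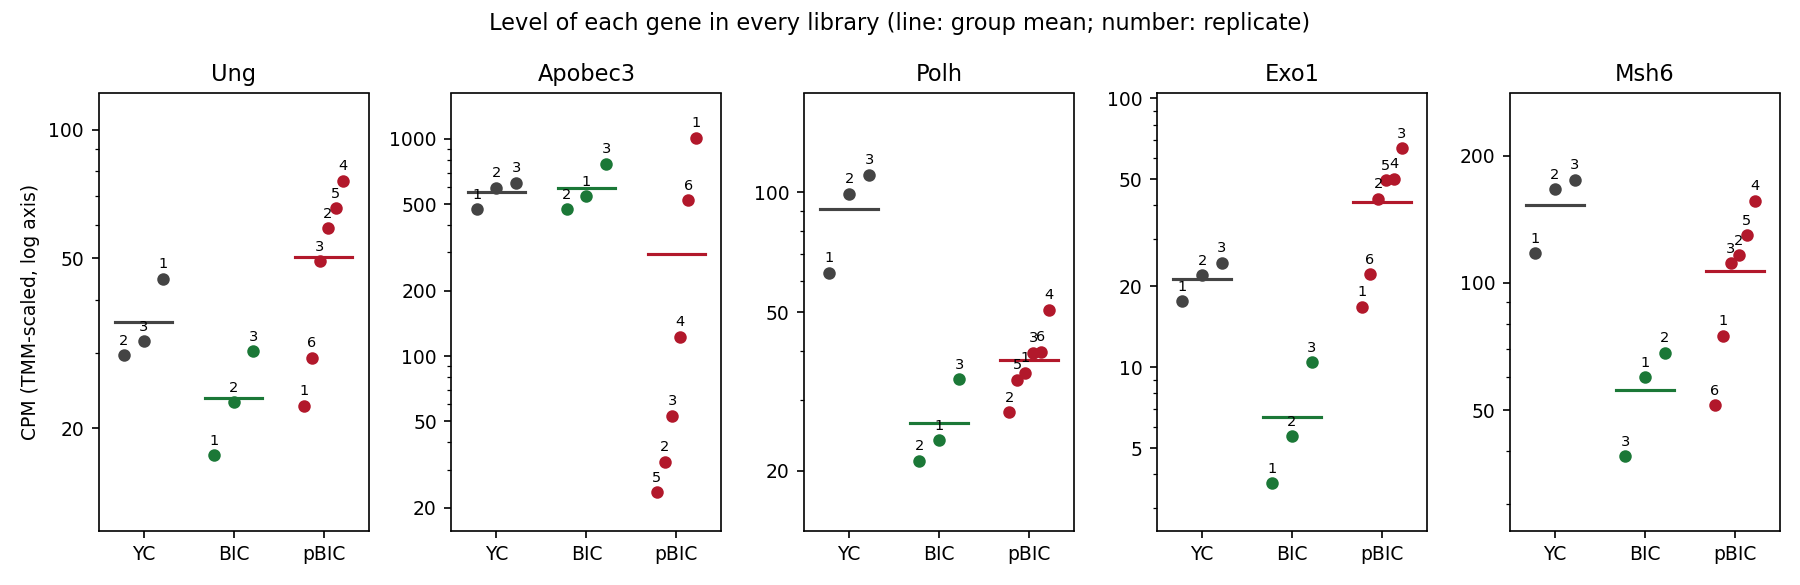
Level of Ung, Apobec3, Polh, Exo1 and Msh6 in each library, in CPM on a log axis; points are libraries labelled by replicate number, lines are group means. Polh was lower in all 9 BIC and pBIC libraries than in YC, Exo1 was higher in all 6 pBIC libraries than in BIC, and Apobec3 in pBIC ran from 23.5 to 1012 CPM.

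Polh was lower in both lymphoma models than in normal cells. It encodes DNA polymerase eta, a lesion-bypass polymerase that makes the mutations at A:T pairs during hypermutation and copies past ultraviolet damage. Polh (ENSMUSG00000023953.8, chromosome 17, 46172004 to 46202625, minus strand, GRCm38) stood at 62.8, 99.1 and 111 CPM in YC 1, YC 2 and YC 3. In BIC 1, BIC 2 and BIC 3 it stood at 23.9, 21.2 and 33.9 CPM. In pBIC the lowest, median and highest values were 28.0, 37.4 and 50.7 CPM. No lymphoma library reached the lowest control. Polh fell by 1.79 on the log2 scale in BIC against YC (SE 0.27, edgeR adjusted p = 0.00377), to a level 3.45-fold lower. Against YC, Polh in pBIC fell by 1.26 (SE 0.22, edgeR adjusted p = 0.00248), or 2.40-fold. In pBIC against BIC the log2 fold change was 0.52 ± 0.24 and did not pass (edgeR adjusted p = 0.138), with 4 of 6 pBIC libraries above every BIC library. Both calls held without each library in turn.

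Markers of several cell types differed between YC and the lymphoma models along with Polh. For the germinal centre list, the 8 markers summed to 686 to 1521 CPM in YC. Their sum was 21.4 to 43.7 CPM in the BIC libraries and 18.0 to 39.4 CPM in the pBIC libraries, where 1 marker was at 0 in pBIC 5 and in pBIC 6. In YC 1, the control with the least Polh, they stood at 686 CPM against 1353 and 1521 CPM in YC 2 and YC 3. The 4 plasma cell markers summed to 1346 to 1792 CPM in YC, with 248 to 508 CPM in the BIC libraries and 175 to 913 CPM in the pBIC ones. None of the 4 was called in BIC against YC (edgeR adjusted p = 0.109 to 0.47), and 3 were called lower in pBIC against YC. The 5 macrophage markers summed to 46.3 to 84.1 CPM in YC and 167 to 254 CPM in BIC, and the 5 T cell markers to 5.98 to 13.2 CPM and 31.9 to 110 CPM. In pBIC the ranges of both, 14.1 to 315 and 4.49 to 26.4 CPM, overlapped those of YC. The macrophage markers did not all move with their sum. Cd68 was called higher in BIC against YC (log2 fold change 2.37, edgeR adjusted p = 0.0263). Adgre1 was called lower there (-2.85, edgeR adjusted p = 0.0245) and in pBIC against YC (-4.74, edgeR adjusted p = 0.000314). Csf1r, C1qa and Lyz2 had positive values in both comparisons and were not called. Among the T cell markers Cd3g had the highest mean in BIC, at 61.4 ± 42.8 CPM (SD, n = 3). Its control mean was 2.61 ± 0.771 CPM, and it alone was called in BIC against YC (edgeR adjusted p = 0.0105). Cd3e, Cd3d, Cd4 and Cd8a had BIC means from 3.73 to 6.32 CPM and did not pass (edgeR adjusted p = 0.243 to 0.402). The part of these markers in the results for Polh and for the other 4 genes was not tested. In sorted bulk samples, fewer cells of a type and less RNA per cell cannot be told apart. Polh was also the steadiest of the 5 genes among pBIC mice: its log2 CPM had an SD of 0.286 there, and 84.9% of all tested genes had a larger one.

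**Figure D2:**
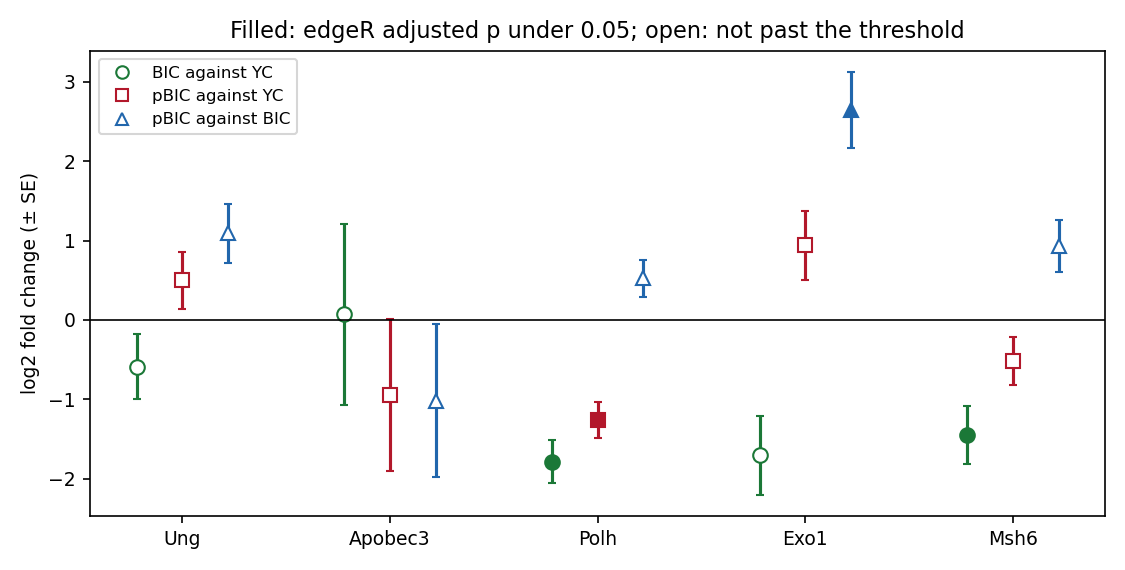
log2 fold change of each gene in the 3 comparisons, with SE as bars; filled symbols passed edgeR adjusted p under 0.05. Polh was negative and filled in BIC and in pBIC against YC, Msh6 in BIC against YC, and Exo1 was positive and filled in pBIC against BIC at 2.65.

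Msh6, the mismatch-binding subunit that recognises a U:G pair, was lower in BIC than in YC. Msh6 (ENSMUSG00000005370.3, chromosome 17, 87975050 to 87990883, plus strand) stood at 118, 166 and 175 CPM in YC 1, YC 2 and YC 3 and at 60.0, 68.5 and 39.0 CPM in BIC 1, BIC 2 and BIC 3. The groups did not overlap. It fell by 1.46 on the log2 scale (SE 0.37, edgeR adjusted p = 0.0306), or 2.74-fold. This call ended without YC 2, YC 3, BIC 1, BIC 2 or BIC 3 (edgeR adjusted p = 0.0982, 0.112, 0.0902, 0.0717 and 0.106), with log2 fold changes from -1.62 to -1.21 over the 12 fits that left out 1 library. A term for Xist expression cannot separate sex from genotype in this comparison. With it the log2 fold change of Msh6 was -2.32 ± 0.39 and passed (edgeR adjusted p = 0.0103). In pBIC the lowest, median and highest values were 51.4, 114 and 156 CPM, with pBIC 1, 2, 3 and 6 below every YC library and pBIC 4 and pBIC 5 within the YC range. The log2 fold change was -0.52 ± 0.31 in pBIC against YC (edgeR adjusted p = 0.241) and 0.93 ± 0.32 in pBIC against BIC (edgeR adjusted p = 0.062), and neither passed. Without pBIC 1 or pBIC 6 the latter passed (edgeR adjusted p = 0.0447 and 0.0157). Msh6 shares 25 of its 4254 exonic bases with Fbxo11 on the opposite strand.

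Exo1, the exonuclease that resects from a nick past the mismatch, showed the largest change of the 5 genes between the 2 lymphoma models. Exo1 (ENSMUSG00000039748.11, chromosome 1, 175880581 to 175913489, plus strand) stood at 17.7, 22.003 and 24.5 CPM in YC 1, YC 2 and YC 3 and at 3.70, 5.56 and 10.4 CPM in BIC 1, BIC 2 and BIC 3. In pBIC the lowest, median and highest values were 16.8, 46.0 and 65.2 CPM. All 6 pBIC libraries lay above every BIC library, and pBIC 1 and pBIC 6, at 16.8 and 22.2 CPM, lay near the controls. Exo1 rose by 2.65 on the log2 scale in pBIC against BIC (SE 0.48, edgeR adjusted p = 0.00394), or 6.26-fold, and the call held without each library in turn. BIC libraries were all below YC, with a log2 fold change of -1.71 ± 0.50 that missed the threshold (edgeR adjusted p = 0.053); it passed with DESeq2 (DESeq2 adjusted p = 0.00901), with only BIC and YC fitted (edgeR adjusted p = 0.015) and without BIC 3, pBIC 1, pBIC 3 or pBIC 6 (edgeR adjusted p = 0.0411, 0.0276, 0.0446 and 0.0428). Against YC, the pBIC log2 fold change of Exo1 was 0.94 ± 0.43 (edgeR adjusted p = 0.139), with 4 of 6 pBIC libraries above every control and 1 below; with a term for Xist expression it was 0.59 ± 0.49 (edgeR adjusted p = 0.435).

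Ung, the glycosylase that removes uracil from DNA, passed in no comparison. Ung (ENSMUSG00000029591.14, chromosome 5, 114130386 to 114139323, plus strand) stood at 44.8, 29.6 and 32.03 CPM in YC 1, YC 2 and YC 3 and at 17.3, 23.0 and 30.3 CPM in BIC 1, BIC 2 and BIC 3. In pBIC the lowest, median and highest values were 22.6, 54.0 and 76.0 CPM. Libraries pBIC 2, 3, 4 and 5 lay above every YC and BIC library, while pBIC 1 and pBIC 6, at 22.6 and 29.3 CPM, lay below every YC library. The log2 fold change was -0.59 ± 0.41 in BIC against YC (edgeR adjusted p = 0.394), 0.50 ± 0.36 in pBIC against YC (edgeR adjusted p = 0.34) and 1.09 ± 0.37 in pBIC against BIC (edgeR adjusted p = 0.0573). The BIC against YC value of Ung was -1.49 ± 0.52 with a term for Xist expression (edgeR adjusted p = 0.112) and -0.39 without YC 1 (edgeR adjusted p = 0.694). The Xist term cannot separate sex from genotype in that comparison. The pBIC against BIC value passed with DESeq2 (DESeq2 adjusted p = 0.0246) and without pBIC 1 or pBIC 6 (edgeR adjusted p = 0.0159 and 0.0343).

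Markers of dividing cells differed between BIC and the other groups in the same direction as Exo1. The 40 proliferation genes had a mean log2 CPM of 6.27 to 6.73 in YC, 4.31 to 5.17 in BIC and 6.17 to 6.99 in pBIC. Of the 40, 34 fell in BIC against YC, where 4.97% of all tested genes fell, and 39 rose in pBIC against BIC, where 10.9% rose. No BIC list mean reached those of the other groups. A term for this mean therefore cannot separate proliferation from group in the comparisons with BIC. With a term for this list's mean in the fit, the log2 fold change of Exo1 in pBIC against BIC was 0.09 ± 1.02 (edgeR adjusted p = 1), that of Polh in BIC against YC -0.68 ± 0.61 (edgeR adjusted p = 0.9) and that of Msh6 -2.16 ± 1.05 (edgeR adjusted p = 0.776). That term left 1 gene of all 17754 called in BIC against YC and 0 in pBIC against BIC by edgeR (1198 and 729 at an unadjusted p under 0.05; DESeq2, without the term, called 3032 in BIC against YC). Polh in pBIC against YC, where the proliferation list held 0 called genes of 40, kept its call with the term. Among pBIC mice, pBIC 3 had the highest list mean, 6.99, and the highest Exo1, and pBIC 1 the lowest list mean, 6.17, and the lowest Exo1 and Ung. In pBIC 6 the list mean was the second highest, 6.87, while Exo1 and Ung were second lowest, Msh6 was lowest and Polh was second highest of the 6. The relation of the list to these genes among pBIC mice was not tested.

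**Figure D3:**
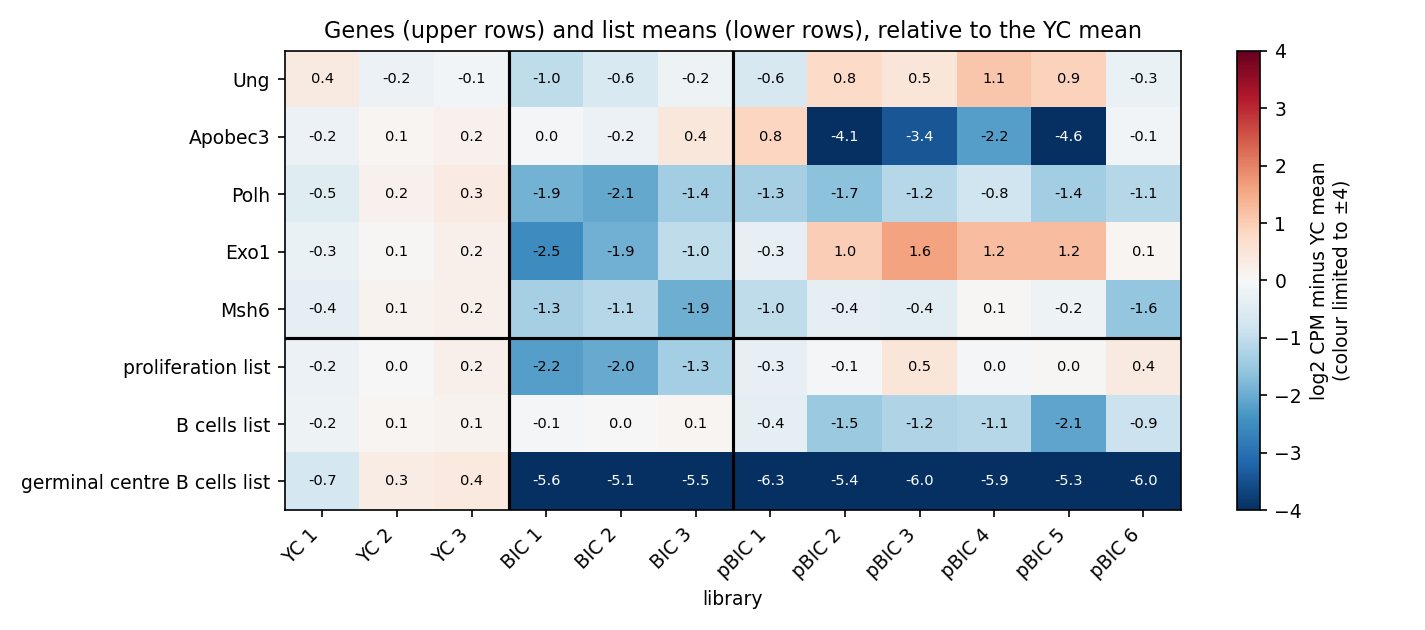
log2 CPM of the 5 genes (upper rows) and mean log2 CPM of the proliferation, B cell and germinal centre lists (lower rows) in each library, minus the YC mean; colours are limited to 4 in either direction and the printed values are not. Apobec3 was at -4.1, -3.4, -2.2 and -4.6 in pBIC 2, 3, 4 and 5 and at 0.8 and -0.1 in pBIC 1 and 6, while the germinal centre list was between -6.3 and -5.1 in every BIC and pBIC library.

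Apobec3 ranged widely among the pBIC mice. It encodes a cytidine deaminase of single-stranded DNA known in mouse for restricting retroviruses. Apobec3 (ENSMUSG00000009585.17, chromosome 15, 79891659 to 79915906, plus strand) stood at 475, 598 and 629 CPM in YC 1, YC 2 and YC 3 and at 546, 474 and 768 CPM in BIC 1, BIC 2 and BIC 3. In pBIC 1 it stood at 1012 CPM and in pBIC 6 at 522 CPM. In pBIC 2, 3, 4 and 5 it stood at 32.6, 53.0, 123 and 23.5 CPM, below every YC and BIC library. The pBICh libraries (pBIC 1, 2 and 3) and the pBICl libraries (pBIC 4, 5 and 6) each held 1 high and 2 low values. The highest and lowest pBIC libraries differed 43.0-fold, from 39695 and 1017 counts. The SD of its log2 CPM was 2.21 in pBIC, 0.216 in YC and 0.358 in BIC. Of all tested genes 3.31% had a larger SD than Apobec3 in pBIC, where the median gene had 0.594.

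No comparison of groups passed for Apobec3. The log2 fold change was 0.07 ± 1.14 in BIC against YC (edgeR adjusted p = 0.979), -0.95 ± 0.96 in pBIC against YC (edgeR adjusted p = 0.509) and -1.02 ± 0.96 in pBIC against BIC (edgeR adjusted p = 0.487). The fit uses 1 spread per gene over all 12 libraries, the pBIC mice included. Without pBIC 1 the pBIC values were -1.91 against YC and -1.98 against BIC, and neither passed (edgeR adjusted p = 0.117 and 0.107). With a term for Xist expression, the BIC against YC value was 2.84 ± 1.24 (edgeR adjusted p = 0.195) and the pBIC against YC value -0.18 ± 0.85 (edgeR adjusted p = 0.908). In BIC against YC that term cannot separate sex from genotype. The pBIC against BIC value with that term was -3.02 ± 0.95 and passed (edgeR adjusted p = 0.0469); of the 4 low libraries pBIC 2, 4 and 5 carried Xist and pBIC 3 did not.

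The B cell markers were at 6631 and 4514 CPM in pBIC 1 and pBIC 6 and at 2965, 3486, 3857 and 1926 CPM in pBIC 2, 3, 4 and 5, the same 4 libraries in which Apobec3 was low. The macrophage markers stood at 99.0 CPM in pBIC 1 and 315 CPM in pBIC 6, and at 14.1 to 110 CPM in the other pBIC libraries. The part of either in the result was not tested. Cbx7, a Polycomb gene that shares 100 of Apobec3's 6083 exonic bases on the opposite strand, stood at 90.3 and 92.9 CPM in pBIC 1 and pBIC 6 and at 36.7, 49.7, 91.9 and 51.1 CPM in pBIC 2, 3, 4 and 5.

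The calls among the 5 genes were set beside those over all tested genes. In BIC against YC 2 of 5 were called, both lower, where 8.88% of all tested genes were called, 3.9% higher and 4.97% lower. In pBIC against YC 1 of 5 was called, and it was lower, where 22% of all genes were called, 11.8% higher and 10.2% lower. In pBIC against BIC it was 1 of 5, higher, beside 19.7% of all genes, 10.9% higher and 8.78% lower. The groups did not overlap for 3, 1 and 1 of the 5 genes in these comparisons, beside 45.2%, 26.1% and 21.6% of all tested genes. Each pair of these comparisons shares 1 group of libraries, YC, BIC or pBIC. A low level in BIC therefore enters both comparisons with BIC. The median log2 fold change of the 5 genes was -1.46, -0.52 and 0.93, beside 0.01, 0.10 and 0.09 over all genes.

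The other genes of these pathways were taken from 6 lists, whose counts stand beside the shares of all tested genes that rose and fell: 3.9% and 4.97% in BIC against YC, 11.8% and 10.2% in pBIC against YC, and 10.9% and 8.78% in pBIC against BIC. Of 14 base excision repair partners, which process the abasic site left by Ung, 4 fell and 0 rose in BIC against YC. Hmces, which shields abasic sites in single-stranded DNA, had a mean of 231 ± 97.5 CPM in YC (SD, n = 3). The mean was 32.4 ± 2.37 CPM in the 3 BIC libraries and 11.9 ± 4.63 CPM in the 6 pBIC libraries. Its log2 fold change was -2.84 ± 0.40 in BIC against YC (edgeR adjusted p = 0.00281) and -4.28 ± 0.33 in pBIC against YC (edgeR adjusted p = 2.89e-05). The pBIC level also lay under that of BIC (-1.44 ± 0.32, edgeR adjusted p = 0.00928). Mbd4, a glycosylase for thymine or uracil opposite guanine, fell from 131 ± 43.0 CPM in YC to 30.1 ± 4.93 CPM in the BIC libraries and 29.9 ± 11.6 CPM in the pBIC ones (edgeR adjusted p = 0.00707 and 0.00093). Tdg, another such glycosylase, rose in pBIC against YC by 0.85 ± 0.17 and against BIC by 1.57 ± 0.18 on the log2 scale (edgeR adjusted p = 0.0054 and 0.00073). Lig1, a replication and repair ligase, fell by 1.71 in BIC against YC and rose by 1.72 in pBIC against BIC (edgeR adjusted p = 0.00822 and 0.00292). Among the 14, 3 rose and 3 fell in pBIC against YC, and in pBIC against BIC 3 rose and 2 fell, beside 11.8% and 10.2%, and 10.9% and 8.78%, of all genes.

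Of 15 mismatch repair partners of Msh6 and Exo1, 8 fell in BIC against YC and 12 rose in pBIC against BIC. No member was called the other way in either comparison. The list's median log2 fold changes were -0.76 and 0.98. Rfc1, the large subunit of the clamp loader, fell by 1.86 in BIC against YC (edgeR adjusted p = 0.00466), and Rfc3, a small one, by 1.56 (edgeR adjusted p = 0.00495). Pcna, the sliding clamp that recruits polymerase eta, stood at 314 ± 29.0 CPM in YC, against 135 ± 40.3 CPM in the BIC libraries and 296 ± 40.8 CPM in the pBIC ones. It fell by 1.22 in BIC against YC (edgeR adjusted p = 0.00787) and rose by 1.13 in pBIC against BIC (edgeR adjusted p = 0.00366). Rfc5 and Rfc4 rose by 1.49 and 1.43 in pBIC against BIC (edgeR adjusted p = 0.00073 and 0.00372). Of the 15, 2 rose in pBIC against YC, among them Rfc5 at 0.59 ± 0.17, and 2 fell, among them Rfc1 at -0.94 ± 0.24 (edgeR adjusted p = 0.0239 and 0.0168). Many of these genes serve replication, and the proliferation list moved with them as described above. The part of proliferation in these counts was not tested.

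Of 13 tested lesion-bypass factors other than Polh, 1 rose and 2 fell in BIC against YC, beside 3.9% and 4.97% of all genes. Polk, polymerase kappa, was higher by 1.31 ± 0.28 on the log2 scale (edgeR adjusted p = 0.0144), opposite in sign to Polh at -1.79. Polq, a polymerase of end joining, fell by 1.66 and Rad18, a ligase that marks Pcna for bypass, by 1.09 (edgeR adjusted p = 0.00667 and 0.0199). In pBIC against BIC 4 rose and 1, Polk, fell (-1.40 ± 0.23, edgeR adjusted p = 0.00242), with Polq at 2.09 ± 0.28 and Rad18 at 1.26 ± 0.23 (edgeR adjusted p = 0.00105 and 0.00364). Against YC, where 11.8% of all genes rose and 10.2% fell, 1 of the 13 rose in pBIC, Ube2a at 0.67 ± 0.22, and 1 fell, Primpol at -0.69 ± 0.22 (edgeR adjusted p = 0.0439 and 0.0466).

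Of 22 tested factors that join switch breaks, 0 rose and 2 fell in BIC against YC, Paxip1 by 1.18 and the histone gene H2afx by 1.86 (edgeR adjusted p = 0.0184 and 0.0444). In pBIC against YC 2 of the 22 rose and 0 fell, beside 11.8% and 10.2% of all genes, so the count of higher genes was no larger than the background. These were Xrcc5 and Xrcc6, the Ku subunits that bind broken ends, at 1.02 ± 0.22 and 1.21 ± 0.40 (edgeR adjusted p = 0.0065 and 0.0471). In pBIC against BIC 4 rose and 2 fell. Paxip1 rose by 1.54, Rif1, which protects break ends from resection, by 1.09, and the nuclease gene Mre11a by 0.50 (edgeR adjusted p = 0.00213, 0.00505 and 0.0277).

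Of 9 tested enzymes of the uracil and dUTP pool, which set how much uracil enters DNA during replication, 5 fell in BIC against YC and 5 rose in pBIC against BIC. Tyms, the thymidylate synthase, stood at 27.1 ± 1.82 CPM in YC, against 11.9 ± 1.86 CPM in the BIC libraries and 61.5 ± 11.8 CPM in the pBIC ones. It fell by 1.19 in BIC against YC (edgeR adjusted p = 0.00851) and rose by 1.18 in pBIC against YC (edgeR adjusted p = 0.0021). In pBIC against BIC Tyms rose by 2.37, Rrm1, a ribonucleotide reductase subunit, by 1.62, and Dut, the dUTPase, by 1.99 (edgeR adjusted p = 0.000429, 0.00176 and 0.005). Rrm2 and Rrm1 fell by 2.08 and 1.21 in BIC against YC (edgeR adjusted p = 0.0128 and 0.0169). In pBIC against YC 2 rose, Tyms and Dtymk (0.88 ± 0.26, edgeR adjusted p = 0.0285), and 0 fell.

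Of 5 tested genes of other cytidine and adenosine deaminases, none passed in BIC against YC with edgeR. At an unadjusted p under 0.05 stood Apobec2 (unadjusted p = 0.016, edgeR adjusted p = 0.103) and Apobec1, at 75.2 ± 15.6 CPM in BIC and 147 ± 36.0 CPM in YC (unadjusted p = 0.0158, edgeR adjusted p = 0.102). Adar, the editor of double-stranded RNA, was lower in pBIC than in YC (-0.55 ± 0.14, edgeR adjusted p = 0.0143) and than in BIC (-0.53 ± 0.14, edgeR adjusted p = 0.0202). Apobec2 rose in pBIC against YC (3.99 ± 1.30, edgeR adjusted p = 0.0454), from 1.18 ± 0.250 to 18.8 ± 16.9 CPM, a group SD close to its mean. Adarb1 rose in pBIC against BIC (3.77 ± 1.02, edgeR adjusted p = 0.0241), from 1.36 ± 0.993 to 18.5 ± 17.3 CPM.

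**Figure D4:**
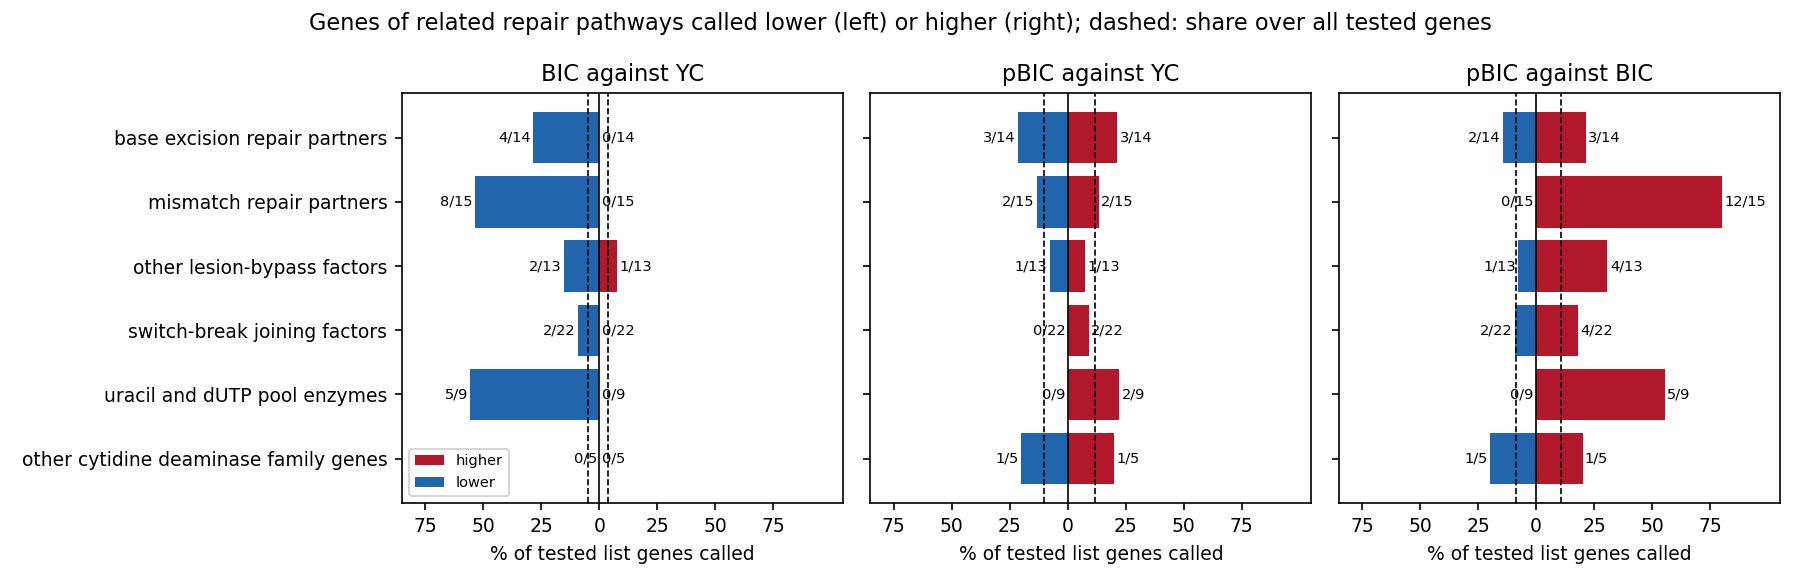
Share of the tested genes of each list called lower (left, blue) or higher (right, red) in each comparison, with counts beside the bars and the share over all tested genes as dashed lines. In BIC against YC 8 of 15 mismatch repair partners and 5 of 9 uracil-pool enzymes were lower; in pBIC against BIC 12 of 15 and 5 of 9 were higher, beside 10.9% of all genes.

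The genes whose log2 CPM ran most nearly parallel to each of the 5 over the 12 libraries were taken from 9469 others with a mean of at least 5 CPM. The points share libraries and groups, so Pearson's r is given as a description. For Exo1 they were Cdca7 (r = 0.993), Cks1b (0.984) and Wdhd1 (0.981), which are replication and cell-cycle genes. Cdca7 ranged from 73.1 to 102 CPM in YC, while the BIC libraries held 15.7 to 46.7 CPM and the pBIC libraries 78.6 to 226 CPM. For Apobec3 they were Rdm1 (0.981), Slc28a2, a nucleoside transporter (0.974), and Ero1lb, an oxidase of the endoplasmic reticulum (0.972). Slc28a2 ranged from 22.9 to 208 CPM in pBIC and from 155 to 200 CPM in YC. For Polh they were Cpne5 (0.958), the chromatin remodelling subunit Bptf (0.945) and the Fanconi anaemia helicase gene Fancm (0.944). Fancm ranged from 59.6 to 92.5 CPM in YC, while the BIC libraries held 16.6 to 23.7 CPM and the pBIC libraries 33.002 to 53.2 CPM. For Ung they were Pde12 (0.952), Hnrnpu (0.942) and Trim25 (0.936), and for Msh6 Clint1 (0.951), Abcb4 (0.928) and Rfc1 (0.909).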

How the data were processed

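Poly(A) RNA of sorted splenic B cells was sequenced as read pairs of 100 bases, per the labels' protocols. Each library has 1 deposited table of unnormalized gene counts, which the authors made with featureCounts 1.5.0 over exons of the GENCODE M13 annotation, per the file headers, without paired-end, strand or multi-mapping options. Mates were therefore counted separately, and reads of overlapping antisense genes cannot be told apart. STAR is named by the submitters' processing notes; its version is not given in the sources used here.

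Symbols came from a table that matched 50376 of 50686 gene identifiers. The test was that of edgeR 4.0.16 (R 4.3.3): TMM factors, filterByExpr by group (minimum count 10), a robust quasi-likelihood fit of the 3 groups to all 12 libraries, and Benjamini-Hochberg adjustment over 17754 genes, called at adjusted p under 0.05. The script was tested on simulated data for BIC against YC, with the same spread for every gene and group. That setting does not cover the wider spread among pBIC mice. SE was derived from each log2 fold change and its F statistic (size over root F), so it restates the test. CPM use TMM-scaled library sizes, and log2 CPM a prior count of 2. A floor of 3 counts corresponds to 0.0637 to 0.0906 CPM and covers counting error only. Replicates are different mice, per the series' design.

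Alternatives were DESeq2 1.42.0, its size factors in edgeR, no filter, only the compared groups, a replicate block, terms for Xist or for proliferation, and leaving out each library. Named genes were the 5 members, per list and comparison up to 3 genes in order of p, and the 3 genes most correlated with each member. Not every gene so chosen is reported here; counts include all. The members and lists were chosen with earlier results of these data known.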

Additional observations from a re-analysis of the deposited data

How the results depend on the processing

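Of 285 refits of the 15 results for the 5 genes, 252 kept both direction and side of the threshold, 8 lost a call, 17 gained one and 8 turned in sign. Polh kept its calls in BIC and pBIC against YC in every refit but one, BIC against YC with the proliferation term (-0.68), and Exo1 in pBIC against BIC lost its call with that term (0.087). The proliferation term also ended the call of Msh6 in BIC against YC (-2.16) and turned Exo1 (0.74) and Apobec3 (-1.27) in BIC against YC and Apobec3 (0.26) and Polh (-0.60) in pBIC against BIC, none of which passed with it. That term cannot separate proliferation from group in the comparisons with BIC. In BIC against YC the Xist term moved Apobec3 from 0.07 to 2.84, Ung from -0.59 to -1.49 and Msh6 from -1.46 to -2.32 without changing a call. The term cannot separate sex from genotype there. It turned Ung in pBIC against YC (-0.12, not past the threshold) and gave calls to Msh6 in pBIC against YC (-1.06) and to Ung (1.38), Apobec3 (-3.02) and Msh6 (1.26) in pBIC against BIC. DESeq2 gave calls to Exo1 in BIC against YC (-1.71) and to Ung (1.07) and Msh6 (0.91) in pBIC against BIC, and the fit of only the 2 groups to Exo1 in BIC against YC (-1.69). The cause was not tested.

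Same-numbered libraries share only a number: their deviations from the group means correlated at -0.0948 to 0.155. With the replicate block, Exo1 in BIC against YC passed (-1.85, edgeR adjusted p = 0.0138), Apobec3 in BIC against YC was just below zero (-0.00249), Apobec3 was at -1.85 in pBIC against YC and -1.84 in pBIC against BIC, Ung in pBIC against YC was at 0.20, and genes called numbered 1725 in BIC against YC, 3144 in pBIC against YC and 2424 when pBIC and BIC were compared.

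Leaving out 1 library at a time, log2 fold changes ran from -0.11 to 0.25 for Apobec3 in BIC against YC (-0.04 without YC 1 and -0.11 without BIC 3), -2.17 to -1.42 for Exo1 and -1.62 to -1.21 for Msh6 in BIC against YC, and 0.91 to 1.29 for Ung and 0.70 to 1.08 for Msh6 in pBIC against BIC. Apobec3 ran from -1.91 (without pBIC 1) to -0.70 in pBIC against YC and from -1.98 (without pBIC 1) to -0.77 in pBIC against BIC. Genes called in BIC against YC, 1576 in all, ran from 563 (without YC 2) to 1867, with 734 without YC 1, 569 without YC 3, 603 without BIC 1 and 619 without BIC 2; they numbered 1019 with the Xist term, 1 with the proliferation term, 4602 with only these groups and 3032 with DESeq2. The share of these calls that were higher was 44.0% and became 50.6% to 52.7% with only these groups, the Xist term or without BIC 2, and 35.5% to 38.0% without YC 1, YC 2 or YC 3. In pBIC against YC 3914 genes were called (1904 to 4376, the lowest without YC 2, with 2223 without YC 1 and 2328 without YC 3), and in pBIC against BIC 3496 (1422 to 4134, the lowest without BIC 1, with 1673 without BIC 2, 2315 without BIC 3 and 0 with the proliferation term by edgeR, 729 at an unadjusted p under 0.05). Of 684 refits of the list counts, 200 moved by over 1.5 times or to or from 0. Where a count is small, a change of 1 gene is enough for this.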
